A study of Bos taurus with 55 samples.

Results

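The arrays described here are the 27 mammary biopsies that Holstein-Friesian dairy cows gave while on a control diet without added oil, out of 55 arrays in all. They were chosen by their diet label, and each was placed by the oil the same cow had eaten before. In the preceding period of 23 days, cows had received a total mixed ration with 2.7% of 1 oil: a mixture of the 3 oils in equal parts, linseed oil (a source of alpha-linolenic acid), soybean oil (linoleic acid) or rapeseed oil (oleic acid). All cows then ate the control diet for 28 days, and the biopsy was taken on the last day, at a mean of 204 days in milk, against 176 days in milk at the end of the oil period. The control-diet arrays came from 7 cows after mixture, 6 after linseed, 7 after soybean and 7 after rapeseed. Of the 28 cows in the study, 27 had an array from both periods. Cows grazed by day, and had been assigned to the oils at random within blocks of parity, days in milk, milk yield and milk fat content. The oils and the control diet followed each other in the same order in every cow, and no biopsy from before the oils was used here. Values are probe set intensities from a 1-colour array, given as log2, so that a difference of 1 is 2-fold.

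The secretory epithelium of the lactating udder makes casein and whey proteins, lactose, and triacylglycerol droplets that leave the cell wrapped in membrane as milk fat globules. Its fatty acids come from synthesis within the cell and from blood lipids freed by lipoprotein lipase, and stearoyl-CoA desaturase puts a double bond into many of them. Unsaturated fatty acids in ruminant diets are known to change milk fat and to act on the regulators of these enzymes. The gland also secretes defence proteins such as lactoferrin and serum amyloid A3, which rise in an infected udder.

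The arrays had median intensities from 9.76 to 12.1. Of the 27, 4 had a mean correlation of 0.911 to 0.950 with the rest, and the other 23 of 0.965 to 0.975. The 4 came from cow 1 after mixture, cows 5 and 15 after linseed and cow 2 after soybean, with none after rapeseed, and are called the arrays apart. Only 2 of the 27 arrays, those of cows 1 and 2, carry the first of the 2 array name prefixes, so that prefix and standing apart cannot be told apart in them. Most arrays of the oil period carry the first prefix, so that in most cows the prefix changed along with the diet. Where a result moved without the 4 arrays, the value without them is given beside it. Luminal epithelial markers were bright in the tissue, with a median level of 8.19 over 9 genes. So were markers of fibroblasts and matrix (median 9.32, 9 genes) and of myoepithelium (7.85, 6 genes). Dim members of these lists were ELF3 (luminal, 2.51), BGN and THY1 (fibroblasts and matrix, 3.47 and 2.99) and OXTR (myoepithelium, 3.01). KRT5, KRT14 and TP63 of the myoepithelium list were not measured. Markers of skeletal muscle (median 2.00, 9 genes), erythrocytes (1.64, 6 genes) and adipocytes (1.78, 9 genes) were dim, except for FABP4 and CFD of the adipocyte list, which averaged 11.29 and 5.98.

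The first comparison asked whether the gland on the control diet still differed by the oil eaten 28 days earlier. No probe set did at an adjusted p under 0.05 (limma's moderated F over the 4 groups, Benjamini-Hochberg adjustment over 10680 probe sets, 0 called, percent called 0). The smallest adjusted p was 0.976, and 397 probe sets (3.72%) had an unadjusted p under 0.05. None of the 6 differences between pairs of oils had a called probe set either. Counts at an unadjusted p under 0.05 (limma) were 381 for mixture minus linseed, 645 for mixture minus soybean, 356 for mixture minus rapeseed, 690 for linseed minus soybean, 561 for linseed minus rapeseed and 184 for soybean minus rapeseed. The smallest adjusted p in any pair was 0.566. The median size of a difference ran from 0.086 for soybean minus rapeseed to 0.139 for linseed minus soybean. The median 95% confidence interval, unadjusted for the number of probe sets, reached 0.327 to 0.341 to either side. Calls were made after adjustment over 10680 probe sets, so that differences well above that size could also go undetected with 6 or 7 cows a group. With all 27 arrays, 181 probe sets differed by over 2-fold between the means of some pair of oils, none of them called, and without the arrays apart 96 did. No call was made without the arrays apart, where the smallest adjusted p was 0.952 for the 4 groups and 0.245 for the pairs.

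The 10 named genes with the smallest F p, none of them called, were COLEC12, FAM114A2, TBCD, MCOLN1, PUDP, PHETA2, ECE1, RWDD3, RECQL and SFN. COLEC12, a scavenger receptor of the collectin family, ranged from 3.95 to 5.41 after mixture (median 4.12), 4.62 to 5.64 after linseed (median 5.17), 3.87 to 5.00 after soybean (median 4.37) and 3.74 to 4.53 after rapeseed (median 4.04). All linseed cows lay above all rapeseed cows, while both other groups overlapped with linseed. The difference linseed minus rapeseed was 1.10 ± 0.23 (SE), a 95% interval of 0.63 to 1.57, with an adjusted p of 0.566 (limma). Without the arrays apart it was 0.98, and while the oils were fed -0.08. FAM114A2 was lower after soybean, at 5.15 to 5.96 (median 5.61), than after mixture, at 5.91 to 6.30 (median 6.13), and these groups overlapped only between 5.91 and 5.96. Its difference mixture minus soybean was 0.56, with an interval of 0.27 to 0.84 and an adjusted p over 10680 probe sets that missed the threshold. TBCD, a cofactor that folds beta-tubulin, ran from 3.19 to 3.62 after mixture and from 3.51 to 4.53 after soybean, a difference of -0.64 (interval -0.93 to -0.34). Most of these genes were dim, with means over the 27 arrays from 2.47 for PHETA2 to 5.96 for FAM114A2.

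**Figure D1:**
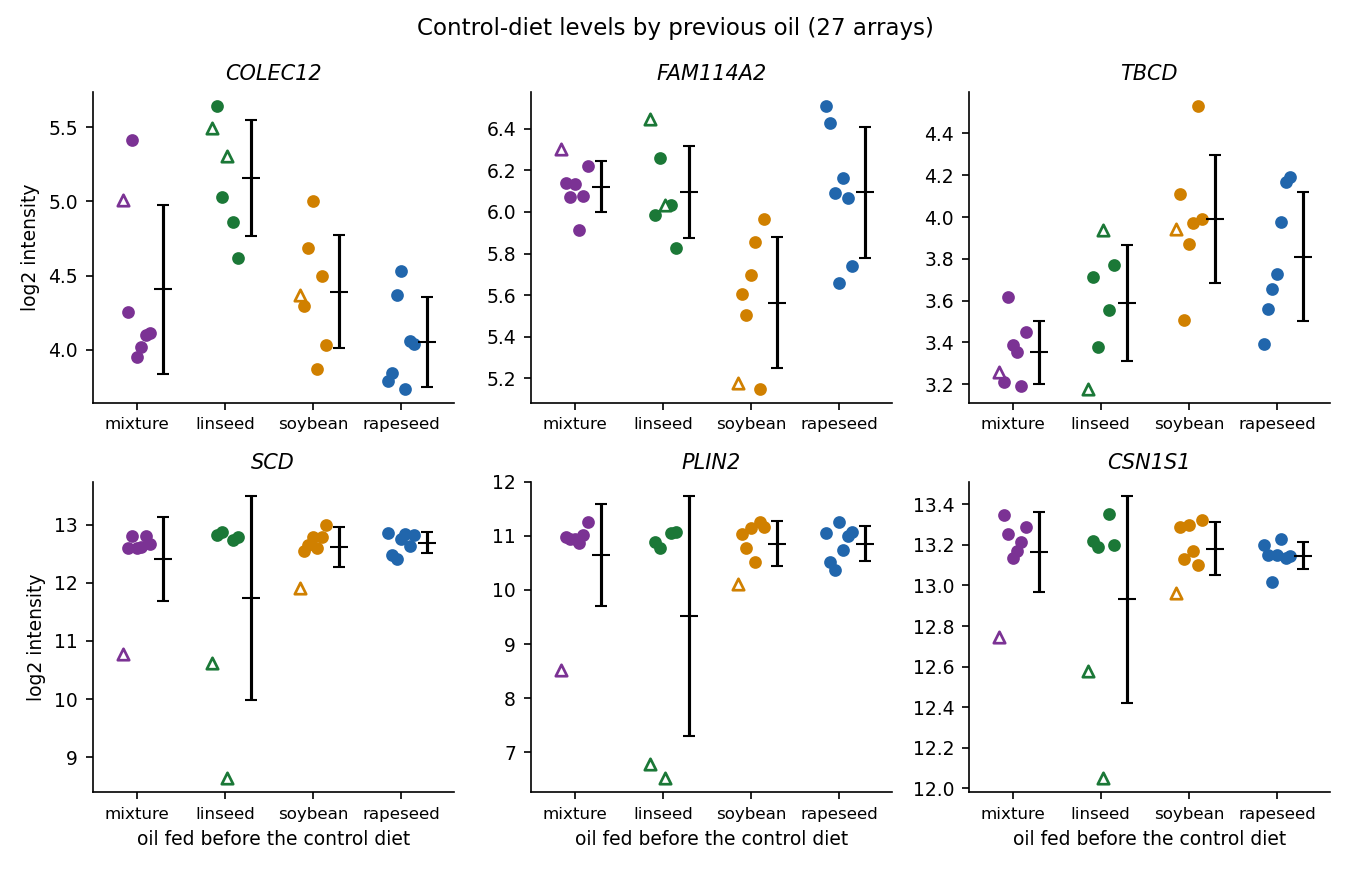
Level on the control diet (log2 intensity) of 3 genes with the smallest F p (top row) and 3 genes of milk synthesis (bottom row), by the oil fed before, with 7, 6, 7 and 7 cows from left to right. Points are single arrays, open triangles the 4 arrays apart, and bars the mean and SD; COLEC12 after linseed (4.62 to 5.64) lies above rapeseed (3.74 to 4.53), while the spread of SCD, PLIN2 and CSN1S1 comes from the triangles.

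The enzymes and carriers of milk fat were compared next, since the oils differ in their fatty acids. SCD, the stearoyl-CoA desaturase of the secretory cell, ranged from 10.78 to 12.81 after mixture (median 12.61), 8.64 to 12.87 after linseed (median 12.76), 11.90 to 12.98 after soybean (median 12.65) and 12.41 to 12.85 after rapeseed (median 12.75). The 4 medians lay close together, and only the arrays apart were below 12.41. Linseed minus rapeseed was -0.94 (interval -1.94 to 0.06) over all cows and 0.12 (interval -0.09 to 0.32) without the arrays apart. SCD5, the second desaturase gene, averaged 6.08 ± 0.31 after mixture, 5.83 ± 0.39 after linseed, 5.64 ± 0.34 after soybean and 5.82 ± 0.27 after rapeseed (SD), with an unadjusted F p of 0.114 (limma).

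ACACA, which commits acetyl-CoA to fatty acid synthesis, varied within every group, from 2.13 to 6.14 after mixture, 1.36 to 6.43 after linseed, 3.06 to 7.21 after soybean and 4.09 to 6.32 after rapeseed. Its 4 lowest values were those of the arrays apart. Among genes of fatty acid uptake, LPL (lipoprotein lipase) averaged 11.98 after mixture, 11.12 after linseed, 12.12 after soybean and 12.01 after rapeseed. The same means of LPL were 12.34, 12.40, 12.30 and 12.01 without the arrays apart. CD36, a fatty acid translocase, and FABP3, the fatty acid binding protein of the mammary cell, followed the same course. FABP3 averaged 12.61 after mixture, 11.56 after linseed, 12.84 after soybean and 12.77 after rapeseed, and 12.87, 13.04, 12.93 and 12.77 without the arrays apart. So for these 3 genes the lower linseed mean was present with, and not without, the 2 linseed arrays apart.

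PLIN2, which coats lipid droplets, ranged from 8.51 to 11.26 after mixture (median 10.95), 6.52 to 11.08 after linseed (median 10.84), 10.11 to 11.26 after soybean (median 11.03) and 10.37 to 11.25 after rapeseed (median 11.00). The 2 linseed values below 7, from cows 5 and 15, had been 9.92 and 10.58 while linseed oil was fed. BTN1A1, butyrophilin of the milk fat globule membrane, was 6.05 and 8.50 in the same 2 cows and 12.50 or more in the other 4 linseed cows. GPAM, the acyltransferase that starts triacylglycerol synthesis, averaged 11.88 after mixture, 12.11 after linseed, 11.88 after soybean and 11.81 after rapeseed without the arrays apart, with an unadjusted F p of 0.037 (limma). With all arrays the F p of GPAM was 0.589. AGPAT1, which adds the second acyl chain, averaged 7.42, 7.24, 8.27 and 8.17 after mixture, linseed, soybean and rapeseed. It was 5.37, 4.53 and 6.01 in cows 1, 5 and 15, against 7.21 or more in the arrays not apart. Its largest difference between oils was -1.03 (linseed minus soybean) with all arrays and -0.54 (mixture minus soybean) without the arrays apart. DGAT1 and DGAT2, the last enzymes of the pathway, were dim here, with all group means between 1.94 and 2.78.

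SREBF1, a regulator of lipid synthesis, averaged 2.96 ± 0.50 after mixture, 2.91 ± 0.51 after linseed, 3.45 ± 0.47 after soybean and 3.43 ± 0.32 after rapeseed (SD), with an unadjusted F p of 0.0487 (limma). The F p of SREBF1 was 0.211 without the arrays apart, and cows 1, 5 and 15 had its 3 lowest values, 2.02, 2.20 and 2.34, against 2.63 or more in the arrays not apart. NR1H2, a liver X receptor, averaged 5.26 ± 0.40 after mixture, 5.52 ± 0.46 after linseed, 5.72 ± 0.36 after soybean and 5.76 ± 0.21 after rapeseed, with an F p of 0.055 (limma), and of 0.0373 without the arrays apart. Its lowest value, 4.44, was that of cow 1. INSIG1, which holds the sterol sensors in the endoplasmic reticulum, and PPARG, a nuclear receptor for fatty acids, had F p values of 0.445 and 0.304. The milk proteins CSN1S1 and CSN3 (caseins), LALBA (alpha-lactalbumin, part of lactose synthase) and PAEP (beta-lactoglobulin) had a largest difference between any 2 oils of at most 0.46 in size, and of at most 0.13 without the arrays apart. PAEP ranged from 14.15 to 14.37 after mixture, 13.17 to 14.28 after linseed, 14.12 to 14.38 after soybean and 13.68 to 14.34 after rapeseed.

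Of 25 genes chosen for milk fat and milk protein, 24 were measured and none was called, against a percent called of 0 over all probe sets. An unadjusted F p under 0.05 (limma) was reached by 1 of the 24, and by 2 without the arrays apart. Over all 10680 probe sets the counts were 397 and 435. The linseed mean was the lowest of the 4 for 20 of the 24 genes, and for 2 without the arrays apart. The median of linseed minus rapeseed was -0.48 over the 24 genes, against 0.019 over all probe sets. Without the arrays apart it was 0.106, against 0.0073. In bulk tissue, fewer cells of a type and less RNA per cell cannot be told apart.

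No member of any of the 17 gene lists or 12 cell marker lists was called between the oils. The median of the largest difference between 2 oils was 0.237 over all probe sets, and 0.207 without the arrays apart. It was 0.166 and 0.183 for ribosomal proteins (21 genes) and the respiratory chain (31 genes), 0.334 for fatty acid synthesis (13 genes), 0.555 for fatty acid uptake (12 genes) and 0.569 for triacylglycerol synthesis and the milk fat globule (19 genes). Without the arrays apart the median was 0.298 for fatty acid synthesis, 0.230 for uptake and 0.215 for triacylglycerol synthesis, close to that over all probe sets for uptake and triacylglycerol synthesis. The largest medians were 0.654 for the interferon response (12 genes) and 0.645 for the acute phase and milk defence (17 genes). Without the arrays apart they were 0.415 and 0.943, and those of macrophage and neutrophil markers 0.745 and 0.604. No member of these lists had an unadjusted F p under 0.05 (limma), with or without the arrays apart. Genes of the first 2 lists also varied more between arrays, with median SDs of 0.947 and 1.34, against 0.303 over all probe sets. Among immediate early genes, which respond within minutes to many stimuli, 3 of 15 had an unadjusted F p under 0.05 (limma), against 3.72% of all probe sets. This was the largest count of any list. The count was also 3 of 15 without the arrays apart, with IER3 in place of JUND. Of 19 genes of apoptosis and involution, 1 had such a p with all arrays and 4 without the arrays apart. Without the arrays apart, 435 of all 10680 probe sets had such a p. DUSP1, a phosphatase that switches off MAP kinases, averaged 7.44 ± 0.42 after mixture, 8.02 ± 0.51 after linseed, 7.42 ± 0.49 after soybean and 8.05 ± 0.34 after rapeseed. ZFP36, which marks inflammatory mRNAs for decay, averaged 5.46 ± 0.71, 5.90 ± 0.42, 6.32 ± 0.64 and 6.34 ± 0.26 in the same order of oils. These 2 genes did not order the oils alike, and neither was called.

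The same cows were compared while they ate the oils, as the mean of both periods, and in how much they changed between periods. In most cows the array name prefix changed between periods too, so that prefix and diet cannot be told apart in a cow's change. No probe set was called by the F over the 4 oils in any of the 3 comparisons (percent called 0 each, limma), with 245, 246 and 486 at an unadjusted p under 0.05. The 8 named genes with the smallest F p while the oils were fed, none of them called, were SLC39A12, SEC22C, UBE2G2, ZFY, THAP6, GPT, MRPL46 and LSM2. On the control diet THAP6 alone of these 8 had an unadjusted F p under 0.05 (0.014, limma), and 0.169 without the arrays apart. Among the 6 pairs of oils, 1 probe set was called in the change between periods, 0.00936% of the 10680 tested in its pair. It was THAP6, which encodes a protein with a THAP-type DNA-binding zinc finger. THAP6 averaged 4.13 ± 0.57 on the control diet after linseed and 3.25 ± 0.52 after soybean, and 3.04 ± 0.61 on linseed oil and 4.25 ± 0.33 on soybean oil (SD). It was higher on the control diet than on the oil in 6 of 6 linseed cows and in 0 of 7 soybean cows. The change thus differed by 2.09 ± 0.36 (SE) between linseed and soybean, with an adjusted p of 0.0367 (limma). That p was adjusted over the probe sets of this pair and not over the 6 pairs. On the control diet alone the difference of 0.88 was not called (adjusted p = 0.715, limma). The call was not kept without the 6 cows that had an array apart in either period (1.98, adjusted p = 0.860, limma), nor, at 1.96 to 2.12, without any 1 of 9 of the 13 linseed or soybean cows. THAP6 was dim, and its F over the 4 oils was not called (adjusted p = 0.502, limma).

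Whole profiles gave no called difference between oils. The first principal component of the 27 arrays held 46.4% of the variance, and had medians of 8.00 after mixture, 8.13 after linseed, 9.92 after soybean and 5.91 after rapeseed (permutation test with 100000 draws, two-sided, p = 0.632, adjusted over 3 measures 0.632). The arrays apart had scores of -70.6 (cow 1), -84.9 (cow 5), -80.3 (cow 15) and -35.9 (cow 2), and the other 23 of -10.1 to 34.6. The second held 9.13% (permutation p = 0.0532, adjusted p = 0.16), and the array median gave a permutation p of 0.427 (adjusted 0.632).

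The brightest transcripts of the gland on the control diet were those of milk proteins and ribosomes. Brightness depends on the probes as well as on the amount of RNA, so the order below ranks probe sets and not transcript amounts. Of the 25 named genes with the highest mean, 13 encode ribosomal proteins, led by RPLP1 at 13.75. PAEP was brightest at 14.14 ± 0.26 (SD, n = 27), followed by the caseins CSN1S2 at 13.80 ± 0.25 and CSN3 at 13.78 ± 0.25. LALBA averaged 13.41 ± 0.46, and CSN1S1 13.11 ± 0.27. SPP1 (osteopontin, a phosphoprotein of milk) averaged 13.21 ± 0.19 and GLYCAM1, a mucin-like milk glycoprotein, 13.17 ± 0.86. Genes of the fat globule and of fat synthesis among the 25 were XDH at 12.69, FABP3 at 12.48 and SCD at 12.38. The others were B2M, the light chain of MHC class I, at 13.05 ± 0.30, and LTF (lactoferrin) at 12.39 ± 0.74. The SD was under 0.5 in 20 of the 25. It was above that in GLYCAM1, XDH, FABP3, SCD and LTF. Without the arrays apart LTF kept an SD of 0.78, and the other 4 had SDs of 0.095 to 0.193. B2M was brighter in all 4 arrays apart than in the other 23. Of the 50 brightest probe sets, 5 had no gene symbol and are not named.

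**Figure D2:**
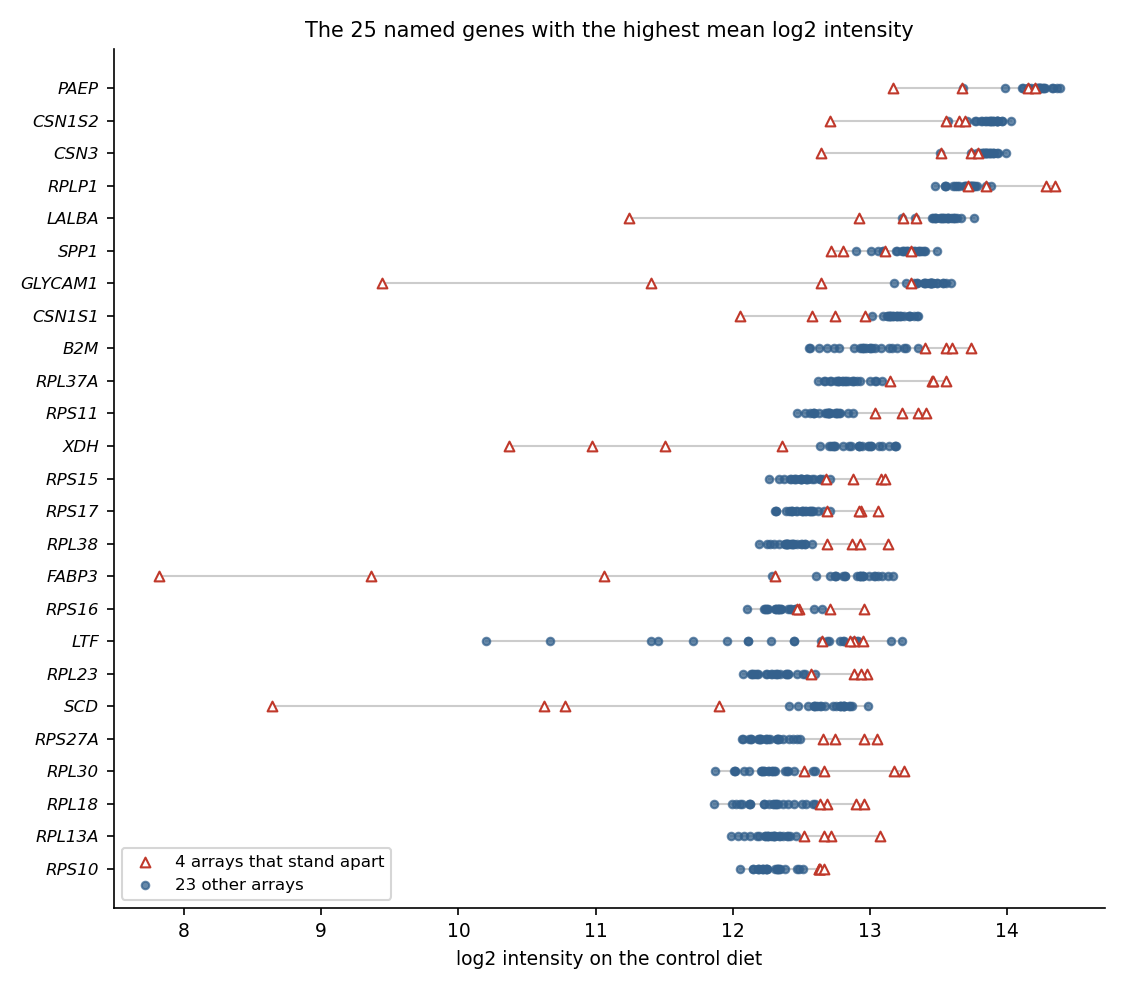
Each row is 1 of the 25 named genes with the highest mean on the control diet, and each point 1 of 27 arrays (log2 intensity). Red triangles are the 4 arrays apart; ribosomal proteins are tight, while FABP3, SCD, GLYCAM1 and LALBA reach down to 7.81, 8.64, 9.44 and 11.24 in the triangles, and LTF spreads over 10.20 to 13.24.

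Much of the ranking of variable genes rested on the arrays apart. Among the 1832 named genes with a mean of 6 or more, 94 had an SD of 1 or more over the 27 arrays, and 22 did without the arrays apart. The median SD of these 1832 genes was 0.361 with and 0.261 without them. For 37 genes the SD was 1 or more with the arrays apart and under 0.5 without. In 36 of the 37 at least 3 of the 4 arrays apart lay below all 23 others, and in 1 at least 3 lay above. That arrays apart lay outside the others follows largely from how the 37 were chosen. The minimum mean of 6 also leaves out dim genes that are bright only in the arrays apart. The 37 genes included secreted and milk fat globule proteins. LPO, the lactoperoxidase of milk, ranged from 3.48 to 11.86 over all arrays and from 10.26 to 11.86 over the 23. GP2, a membrane glycoprotein of secretory granules, ranged from 2.62 to 11.47 and from 9.92 to 11.47. MUC1, a mucin of the milk fat globule membrane, ranged from 2.68 to 10.64 and from 9.41 to 10.64. The other genes of this kind among the 25 most variable were CIDEA (a lipid droplet protein), MUC15, TMEM120B, GPD1 (which supplies the glycerol backbone of triacylglycerol), AGR2 (a disulphide isomerase of secretory cells), PDXK (pyridoxal kinase), BTN1A1 and ACSS2 (which activates acetate). In the same 4 arrays the list mean of milk proteins lay between 8.44 and 9.89, against 9.90 to 10.27 in the other 23. The list mean of fibroblast and matrix genes lay between 8.47 and 9.64, against 6.74 to 8.19, and that of ribosomal proteins between 12.52 and 12.86, against 11.83 to 12.35. The part of these shifts in the values of single genes was not tested.

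**Figure D3:**
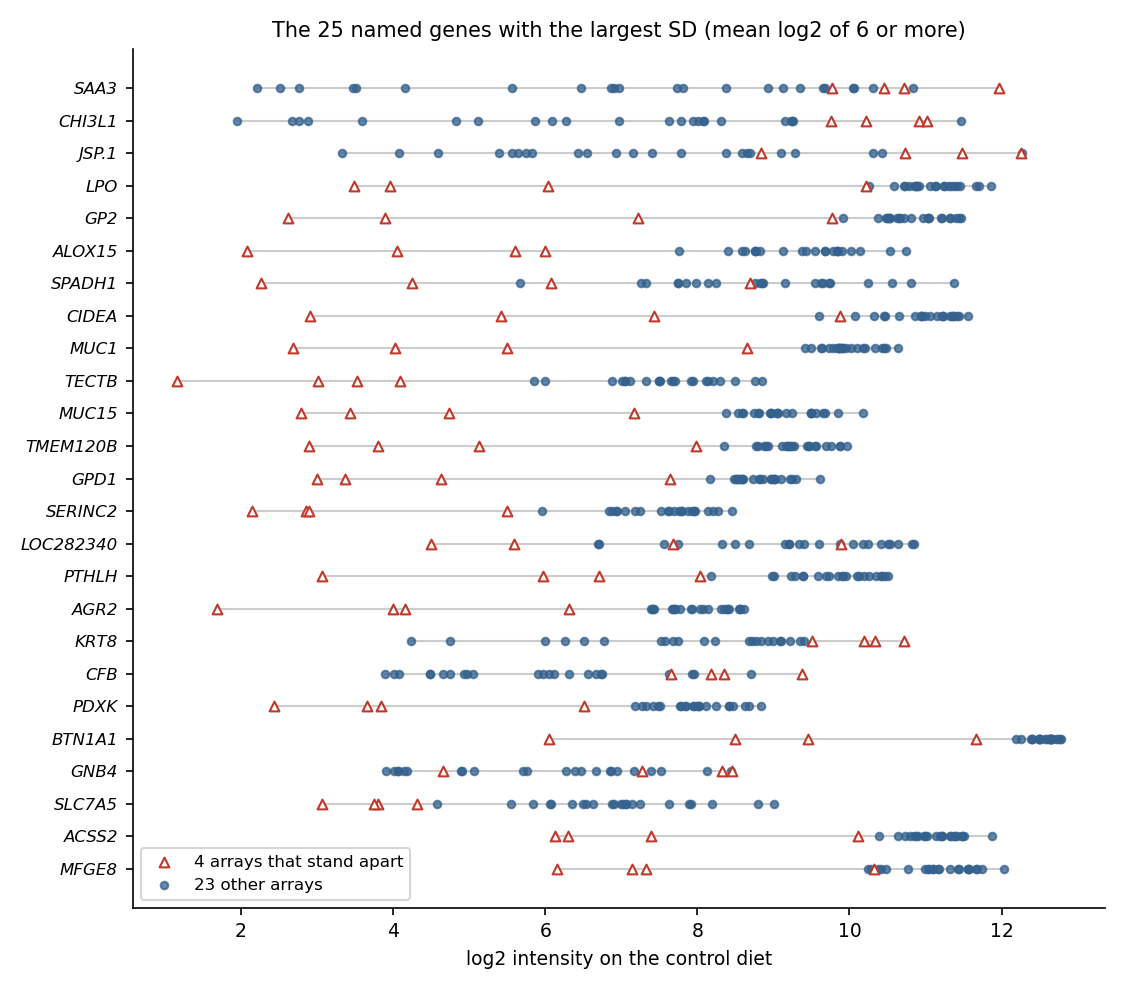
Each row is 1 of the 25 named genes (mean of 6 or more) with the largest SD over the 27 control-diet arrays, and each point 1 array (log2 intensity). In 16 rows the SD falls by more than 50% without the red triangles, the 4 arrays apart; SAA3, CHI3L1, JSP.1, KRT8, CFB and GNB4 spread over the 23 blue points as well.

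SAA3, CHI3L1 and JSP.1 led the ranking with and without the arrays apart. SAA3, the mammary form of serum amyloid A, had a mean of 7.64 ± 2.90 (SD, n = 27) and of 7.10 ± 2.79 without the arrays apart. It ranged from 2.22 to 11.96 after mixture (median 7.73), 2.77 to 10.45 after linseed (median 8.31), 2.52 to 10.71 after soybean (median 8.93) and 5.56 to 10.84 after rapeseed (median 9.13). The 4 groups overlapped (F p of 0.741, limma), and cows that had eaten the same oil lay far apart. Without the arrays apart SAA3 averaged 6.05 after mixture, 5.79 after linseed, 7.43 after soybean and 8.47 after rapeseed (F p of 0.266, limma). CHI3L1, a chitinase-like glycoprotein of inflamed and remodelling tissue, ranged from 1.95 to 11.46 over the 23 arrays (SD 2.57). JSP.1, an MHC class I heavy chain, ranged from 3.33 to 12.27 (SD 2.20). MHC class I genes differ in sequence between cattle, and how well the probes match each animal's alleles was not tested. The next genes with a known role were KRT8 (a keratin of luminal cells, SD 1.47, higher in all 4 arrays apart than in the 23), AKR1C4 (an aldo-keto reductase, 1.46), GNB4 (a G-protein beta subunit, 1.43), CFB (complement factor B, 1.38), SPADH1 (a spermadhesin, 1.32) and CLU (clusterin, 1.26). LYZ (lysozyme), LBP (lipopolysaccharide-binding protein), JCHAIN (the joining chain of secreted IgA and IgM) and C3 (complement C3) had SDs of 0.99 to 1.15. Genes outside the acute phase list lay in the same range, with SDs of 1.01 to 1.08 for TTR, SCIN, PTGDS, SCNN1A, HSPB8, CA8, SLC7A5 and TAGLN2. Of the 17 measured genes of the acute phase and milk defence list, 10 had an SD of 1 or more over the 23 arrays, against 102 of 10680 probe sets.

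SAA3 was then set against the other genes of the acute phase list and against the most variable genes whose SD kept 50% or more without the arrays apart, plus array number, 23 relations in all, chosen after the values were seen. Over the 23 arrays its correlation with CHI3L1 was r = 0.940 and rho = 0.935. It was r = 0.868 and rho = 0.885 with CFB, and r = 0.858 and rho = 0.884 with CLU. For these 3 genes the permutation p was 1e-05 for r and for rho, the smallest that 100000 draws can give, and the adjusted p was 5.75e-05 for r and 7.67e-05 for rho. KRT8 gave r = 0.852 (permutation p = 1e-05, adjusted 5.75e-05) and rho = 0.751 (permutation p = 7e-05, adjusted 4.02e-04). LTF gave r = 0.725 (permutation p = 7e-05, adjusted 3.22e-04) and rho = 0.685 (permutation p = 4.4e-04, adjusted 0.00168). Without the 2 arrays farthest from the median of SAA3, r was 0.921 for CHI3L1, 0.868 for CFB, 0.839 for CLU, 0.797 for KRT8 and 0.724 for LTF. C3, HP (haptoglobin) and LBP gave r = 0.677, 0.634 and 0.626 (adjusted permutation p = 9.97e-04, 0.00306 and 0.00385) and rho = 0.58, 0.676 and 0.642 (adjusted permutation p = 0.0117, 0.00168 and 0.00351). Without the 2 arrays r was 0.595, 0.641 and 0.659 for these 3 genes. PIGR, which carries IgA across the epithelium, gave r = -0.0053, SPP1 r = -0.182 and CD14 r = -0.103, with adjusted permutation p values of 0.981, 0.549 and 0.735, and rho of 0.0178, -0.117 and -0.179 with 0.936, 0.685 and 0.528. Array number gave r = -0.143 (permutation p = 0.511, adjusted 0.620) and rho = -0.199 (permutation p = 0.361, adjusted 0.488). The 23 arrays all carried the same array name prefix.

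**Figure D4:**
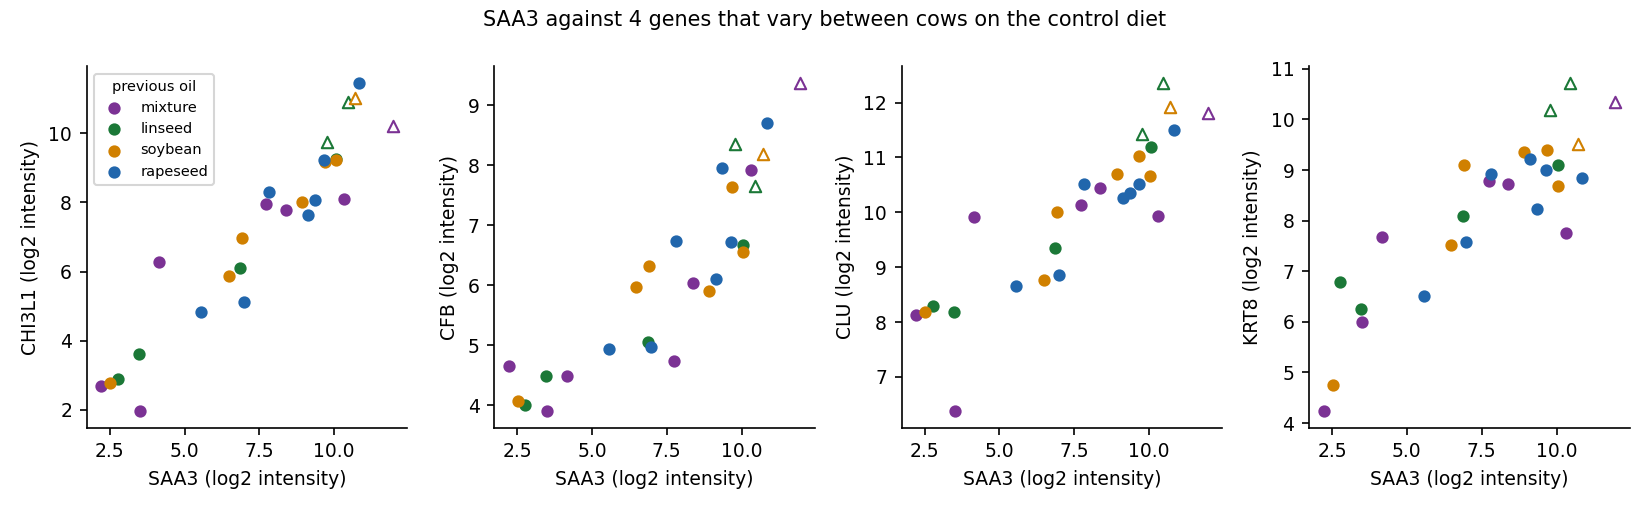
SAA3 on the horizontal axis against CHI3L1, CFB, CLU and KRT8 (log2 intensity), 1 point per control-diet array, coloured by previous oil. Open triangles are the 4 arrays apart, which were not used for r; over the 23 filled points r was 0.940, 0.868, 0.858 and 0.852, and points of different oils lie along the same line.

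Single cows stood out for groups of immune genes, and these were picked out after their values were seen. In the gland of cow 21, after linseed, the list mean of 12 interferon response genes was 5.38 on the control diet and 2.57 while it ate linseed oil, against a median of 3.02 over the 27 arrays. In that cow ISG15, a ubiquitin-like modifier, was 7.38 on the control diet and 2.24 on linseed oil. MX1, an antiviral GTPase, was 7.48 on the control diet and 1.64 on linseed oil. RSAD2 (viperin) was 8.39 on the control diet and 3.34 on linseed oil, and OAS1Y, a sensor of double-stranded RNA, was 7.53 and 3.10. Cow 1, after mixture, whose array stood apart, had a higher list mean of 6.28 on the control diet and 3.22 on the oils. Its ISG15 was 9.51 and 3.70, and 9 of the 12 genes had their highest value of all 27 arrays in it. The median of ISG15 over the 23 arrays not apart was 2.87. The array name prefix differed between the periods in cow 21 and was the same in cow 1.

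Neutrophil markers were highest in cow 18, after soybean, with a list mean of 5.21 on the control diet and 2.45 on soybean oil, against a median of 2.35. Its S100A8, a calcium-binding protein that neutrophils hold in large amounts, was 8.33 on the control diet and 2.80 on soybean oil. S100A12 was 7.90 and 2.45, and the chemokine receptor CXCR1 6.47 and 1.67. Cow 11, after mixture, came next with a list mean of 4.26 on the control diet and 2.69 on the oils. That cow also had the highest list mean of B and plasma cell markers, 5.85 against a median of 4.52, with MZB1 at 5.84 and POU2AF1 at 5.79. The B cell markers MS4A1, BLK and CD79A were dim in it, at 3.27, 2.04 and 1.71. Its JCHAIN was 11.44 on the control diet and 11.54 on the oils, and its XBP1 10.89 and 10.45. In cow 18 the list mean of the acute phase and milk defence genes was 8.50, the highest of the 27, and had been 5.58 on soybean oil. S100A8, S100A9 and S100A12 belong to both the neutrophil and the acute phase list, so these list means share members. The list mean of macrophage and monocyte markers (10 genes) was also high, at 6.02 on the control diet and 4.54 on soybean oil in cow 18, and at 6.20 on the control diet and 5.31 on the oils in cow 11, against a median of 4.86. CD14 and LYZ belong to both the macrophage and the acute phase list, so these list means share members too. The part of one cell type in the values of another was not tested. The defining neutrophil markers MMP9 and ELANE stayed dim in all 27 arrays, at or under 2.05 and 1.48.

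**Figure D5:**
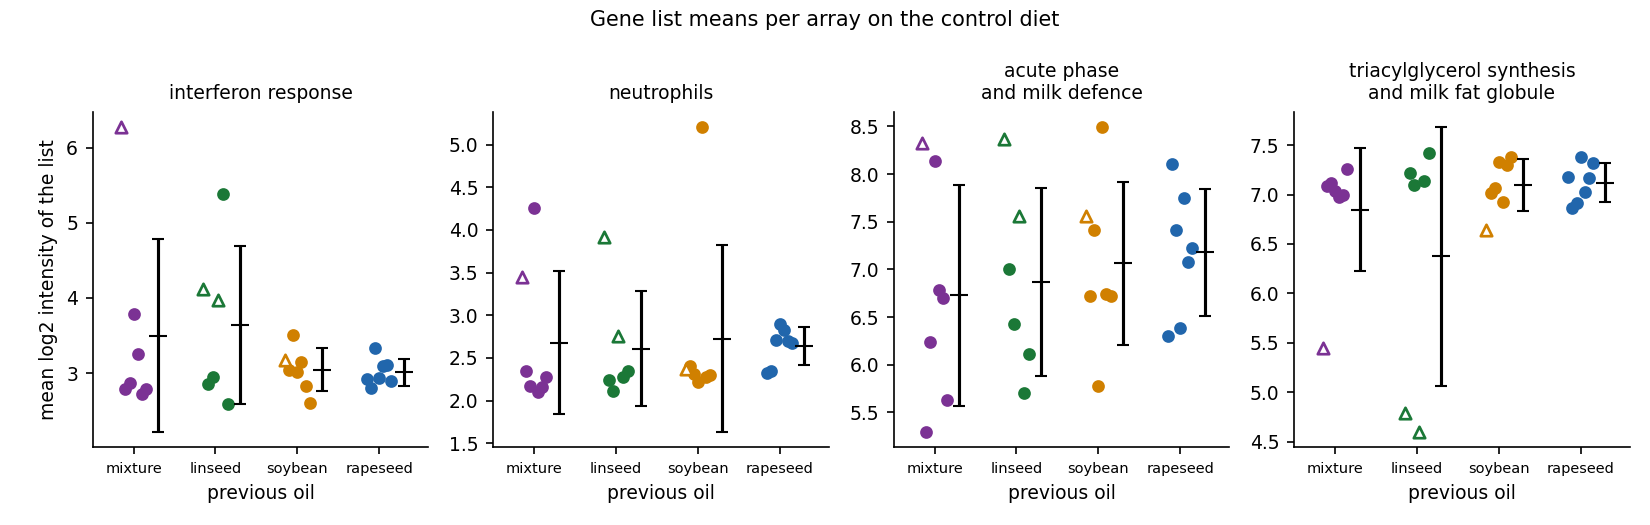
List means per array on the control diet (mean log2 intensity of the listed genes) by previous oil, with open triangles for the 4 arrays apart and bars for the mean and SD. The interferon response is high in 1 mixture cow (6.28) and 1 linseed cow (5.38), neutrophil markers in 1 soybean cow (5.21), and triacylglycerol synthesis is low in the triangles.

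The steadiest genes with a mean of 6 or more were OCIAD1, with an SD of 0.114 around 9.84, ATP5PB and ATP5PD (subunits of the mitochondrial ATP synthase), PPP2CA (the catalytic subunit of protein phosphatase 2A), MTCH1 and NDUFC2 (a subunit of complex I). Their SDs ran from 0.114 to 0.132, against the median of 0.361. OCIAD1 kept between 9.66 and 10.08 in all 27 arrays.

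Whether cows kept their own level in both periods was tested for cows given the same oil, over 54 arrays of 27 cows. At an adjusted p under 0.05, 95 probe sets (0.89%) differed between cows in both periods (limma's moderated F for the cow terms), 69 of them with a gene symbol, and 2510 had an unadjusted p under 0.05. The count rested on single cows: it was 0 without cow 5, 8 without cow 3, 10 without cow 25, 11 without cow 21, 23 without cow 20 and 37 without cow 26. It was 395 without cow 1, 292 without cow 12, 232 without cow 22, 224 without cow 2, 176 without cow 18 and 175 without cow 16. Without the 6 cows that had an array apart in either period it was 0 among 21 cows, with 1218 at an unadjusted p under 0.05, and 70 of the 95 probe sets were among these. No probe set was called beyond a linear trend with cow number. Array number rose with cow number in both periods. A level kept by a cow and an effect of array order therefore cannot be told apart in these calls. The share of the variance between cows had a median of 16.2% over all probe sets. Genes of a mean of 6 or more with the largest shares were RING1 (68.6%), a Polycomb ubiquitin ligase, BAG1 (68.5%), a co-chaperone, and AOX1 (67.9%), aldehyde oxidase. They were followed by MED4, CASP6, ADIPOR1, DPM3, BFAR, CXCL16, UGDH, SRI and CFB. CFB, with 63.1%, stood among both the variable and the lasting genes, with an adjusted p of 0.037 (limma) over 27 cows and 0.137 over the 21. SAA3 had a share of 52.5% and was not called (adjusted p = 0.059, limma). In cow 10, after rapeseed, SAA3 was 10.84 on the control diet and 12.46 on rapeseed oil, whereas in cow 18, after soybean, it was 9.68 and 2.61.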

How the data were processed

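Mammary RNA (2 micrograms) was hybridised to 1-colour Affymetrix bovine arrays, per the labels' protocols. The deposited values are probe set intensities on a linear scale, and the submitters' processing notes name RMA and GCRMA without version or role. Here log2 was taken with no further scaling. Of 11495 probe sets, 112 controls were left out and 703 with identical values were merged, which left 10680. RefSeq accessions named 6649 of them (6636 genes, ARS-UCD2.0 gene table); 4029 had no symbol there. Where a gene had more than 1, the probe set with the highest mean over the 55 arrays stood for it.

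Groups follow the labels. Fits used limma 3.58.1 in R 4.3.3 on the 27 control-diet arrays without covariates, two-sided, with Benjamini-Hochberg adjustment over all 10680 probe sets and a threshold of 0.05. An array was said to stand apart at a mean correlation under 0.96. Lasting differences were tested with oil by period and cow in the fit. Arrays of the 2 periods are paired by cow, being the same animal; deviations within a cow correlated at a median of 0.192 (over 0.1 in 18 of 27 cows). Each cow is 1 sample, and the number of arrays limits precision. The fits were tested on simulated data.

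Named genes were the 10 with the smallest F p, the 25 brightest, the 25 most and 6 least variable with a mean of 6 or more, the 12 with the largest share between cows, the 8 with the smallest F p while the oils were fed, and 25 chosen genes, plus members of the lists. Members, lists and rules were chosen with earlier results of these data known. Alternatives covered arrays, scaling, filters, covariates and weights.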

Additional observations from a re-analysis of the deposited data

Results flagged for a closer look

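For 36 genes and 5 list means, each of the 4 groups was searched for a highest or lowest array whose gap to the next exceeded Dixon's 95% critical value. Chance flags about 1 in 20 groups, and 31 such values were found in 164 groups, 24 of them on an array apart and 17 of these on that of cow 1 alone. In cow 1, after mixture, the lowest values were 9.79 for ACSL1, 5.37 for AGPAT1, 9.45 for BTN1A1, 11.01 for CD36, 12.74 for CSN1S1, 13.74 for CSN3, 11.06 for FABP3 and 10.53 for GPAM. Also lowest there were INSIG1 at 8.40, LPL at 9.78, NR1H2 at 4.44, PLIN2 at 8.51, SCD at 10.78 and XDH at 11.50. The same array had the lowest list mean of milk proteins (9.19) and of triacylglycerol synthesis (5.45) and the highest of the interferon response (6.28) after mixture. In cow 15, after linseed, CSN3 was lowest at 12.64 and LALBA at 11.24, and in cow 5 the neutrophil list mean was highest at 3.92. In cow 2, after soybean, the lowest values were 11.64 for CD36, 12.31 for FABP3, 11.07 for GPAM and 11.90 for SCD.

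Of the 7 others, the neutrophil list mean of 5.21 in cow 18 after soybean lay farthest from its group, whose next value was 2.41. PHETA2 was highest at 3.01 in cow 17 and SCD5 at 6.37 in cow 13, both after soybean. SCD5 was lowest at 5.26 in cow 27 and SFN at 3.05 in cow 12, and THAP6 highest at 4.37 in cow 10, all after rapeseed. SFN was lowest at 2.92 in cow 21 after linseed.

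THAP6 changed differently between periods after linseed and after soybean, by 2.09 on the log2 scale (adjusted p = 0.0367, limma, not adjusted over the 6 pairs). It changed upwards in 6 of 6 linseed cows and in 0 of 7 soybean cows. The call was lost without the 6 cows with an array apart (adjusted p = 0.860, limma) and without any 1 of 9 of the 13 cows, and the F over the 4 oils was not called (adjusted p = 0.502, limma).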

How the results depend on the processing

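The comparison of the 4 oils and the 6 pairs gave 0 called probe sets under every alternative run: without the arrays apart, with array name prefix or array number as a covariate, centred or quantile-normalised, with mean log2 of 4 or more, unmerged, with a trend and robust prior, with array weights, and leaving out each cow (0 to 0). With the cow as a random replicate block over all 55 arrays the paired fit also called 0 (smallest adjusted p 0.653 for the 4 oils and 0.156 for the pairs, limma). The replicate block changed no call. The F counts for the oil period, the mean of both periods and the change stayed at 0 under their alternatives. The unadjusted count of 397 was 639 with the prefix and 137 with mean log2 of 4 or more. For lasting differences the 95 calls became 0 without cows with an array apart, 157 with mean log2 of 4 or more, 0 beyond a linear trend with cow number, and 0 to 395 leaving out each cow in turn, an alternative chosen after seeing the data. Centring left 91 calls, 79 of them shared. Of the 25 most variable genes, 7 were shared without the arrays apart when the minimum mean of 6 was taken over the 23 arrays. The number was 9 when the minimum was taken over all 27 (chosen after seeing the data). GNB4 and CFB, among these 9, had means of 5.91 and 5.85 over the 23 arrays, under the minimum. What else lay behind the first 2 numbers was not tested. With a mean of 4 or more 14 were shared, and 13 with no minimum, settings that admit dimmer genes. The list of brightest genes shared 23 of 25 without the arrays apart. The THAP6 change lay between 1.96 and 2.29 over all alternatives, with adjusted p values (limma) from 0.0123 to 0.860. Dim probe sets and 6 or 7 cows a group limit what could be detected.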
